A study of Homo sapiens with 4 samples.

Results

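The sodium pump (Na+/K+-ATPase) was described here through 5 of its genes in human myeloid leukemia cells: ATP1A4, a catalytic alpha subunit, ATP1B1, ATP1B2 and ATP1B3, the beta subunits, and FXYD5, a small regulatory subunit. They were chosen by name as members of this gene family, with earlier results of these data known. Some other genes of the family are not reported here. All 5 members were found by Ensembl identifier among the 20348 genes of the deposited table. The RNA was from 2 established cell lines: K562, a line from a patient with chronic myeloid leukemia that carries erythroid features, and THP-1, a line of acute monocytic leukemia. Per the methods, treated cells received 100 nM periplocin for 72 h and control cells received DMSO, the solvent. Each of the 4 combinations was sequenced as 1 library, without replicates. The titles describe the control samples as blank, and their libraries carry DMSO in the name.

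The pump sits in the plasma membrane and uses ATP to carry sodium out of the cell and potassium in. The alpha subunit splits ATP, moves the ions and carries the site at which cardiac glycosides bind. The beta subunit is a glycoprotein that the alpha subunit needs in order to fold and to reach the cell surface, and proteins of the FXYD family bind the assembled pump and adjust its activity. Periplocin belongs by structure to the cardiac glycosides, for which the pump is the known receptor. These libraries measure RNA only, so they say nothing of binding, of pump activity or of protein at the surface.

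On GRCh38 with GENCODE release 29, ATP1B3 (ENSG00000069849) lies on the plus strand of chromosome 3 from 141876124 to 141926514, ATP1B1 (ENSG00000143153) on the plus strand of chromosome 1 from 169105697 to 169132722, and ATP1B2 (ENSG00000129244) on the plus strand of chromosome 17 from 7646627 to 7657768. FXYD5 (ENSG00000089327) lies on the plus strand of chromosome 19 from 35154730 to 35169883, and ATP1A4 (ENSG00000132681) on the plus strand of chromosome 1 from 160151570 to 160186977. The longest coding transcripts of ATP1B1, ATP1B2 and ATP1B3 each have 7 exons and encode 303, 290 and 279 amino acids. ATP1B1 shares 192 bp with NME7 on the opposite strand, and ATP1B3 shares 770 bp with its antisense transcript ATP1B3-AS1, which is not in the table. NME7 had between 153 and 177 counts in the 4 libraries. The counting was not stated to use strand, so reads of these stretches could not be assigned to one gene with certainty.

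The promoters of the beta genes are shown because these 3 genes of like function did not share 1 pattern, as described below for each. ATP1B3 rose at least 2-fold in both lines, ATP1B1 in THP-1 only, and ATP1B2 in K562, the only line where it had counts. Whether the promoters bear on this was not tested. Each window runs from 250 bases before to 50 bases after the transcript start in RefSeq on GRCh38.p14, at chr3:141876393-141876692 for ATP1B3, chr1:169106440-169106739 for ATP1B1 and chr17:7646377-7646676 for ATP1B2, all on the plus strand and written 5′ to 3′. Each gene is shown at 1 start only, while GENCODE lists 10 transcripts for ATP1B3 and 3 each for ATP1B1 and ATP1B2. The ATP1B3 and ATP1B1 windows begin inside the GENCODE gene, and the ATP1B2 window spans its first base. Other starts were not examined, so base content and motifs hold for these windows only. Capitals mark matches on either strand to 7 motifs, picked after the levels were known, and no match overlaps another.
ATP1B3: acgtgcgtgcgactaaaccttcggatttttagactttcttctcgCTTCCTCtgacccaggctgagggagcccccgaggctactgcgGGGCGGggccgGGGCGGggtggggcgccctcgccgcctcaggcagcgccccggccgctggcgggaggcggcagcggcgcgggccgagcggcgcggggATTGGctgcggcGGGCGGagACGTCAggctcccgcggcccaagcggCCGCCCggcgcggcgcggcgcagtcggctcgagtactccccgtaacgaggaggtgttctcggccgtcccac
ATP1B1: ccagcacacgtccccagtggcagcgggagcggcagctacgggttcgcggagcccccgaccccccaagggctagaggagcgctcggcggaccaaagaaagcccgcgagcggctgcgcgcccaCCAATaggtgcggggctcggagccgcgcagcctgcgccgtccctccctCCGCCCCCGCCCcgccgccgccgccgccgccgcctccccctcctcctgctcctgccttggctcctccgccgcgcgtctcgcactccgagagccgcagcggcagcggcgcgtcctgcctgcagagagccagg
ATP1B2: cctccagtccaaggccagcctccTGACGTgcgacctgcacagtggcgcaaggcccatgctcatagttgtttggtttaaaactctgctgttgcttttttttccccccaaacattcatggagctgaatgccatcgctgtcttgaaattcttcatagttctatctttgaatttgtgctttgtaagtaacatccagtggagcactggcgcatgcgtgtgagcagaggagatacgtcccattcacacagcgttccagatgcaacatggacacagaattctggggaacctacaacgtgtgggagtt

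The motifs were the GC box GGGCGG, the CCAAT box CCAAT, the core of the cAMP response element TGACGT, the GATA motif AGATAA, the PU.1 motif GAGGAAG, the E-box CACGTG and the TATA motif TATAAA. The ATP1B3 window held 4 GC boxes, 1 CCAAT box, 1 TGACGT and 1 GAGGAAG, and 75.0% of its bases were G or C. The ATP1B1 window held 2 GC boxes and 1 CCAAT box at 77.0% GC. The ATP1B2 window was poorer in G and C, at 49.0% against a median of 58.7% over all promoters, and held only 1 TGACGT. FXYD5 had 1 GC box and ATP1A4 1 CCAAT box. Of the 35116 promoters of the same length, 45.0% held a GC box, 34.6% a CCAAT box, 7.98% TGACGT, 13.6% GAGGAAG, 10.3% AGATAA, 7.26% CACGTG and 11.5% TATAAA. The last 3 were in none of the 5 windows.

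The libraries held between 16381158 and 20622681 expected counts, an estimate of reads or fragments per gene that need not be whole. Levels are given as CPM, the count scaled to a library total of 1e6, and a count of 3, taken as the floor, corresponds to between 0.145 and 0.183 CPM. The lines carried the markers of their labels. All 12 erythroid markers were above the floor in K562, where their sum was 2561 CPM in DMSO, against 11.7 CPM in THP-1 DMSO. All 12 monocytic markers were above it in THP-1, where their sum was 1076 CPM in DMSO, against 94.2 CPM in K562 DMSO. In the other line, 8 erythroid markers were above the floor in THP-1 DMSO and 7 monocytic markers in K562 DMSO. Of 12 markers of T, B, epithelial, fibroblast, endothelial and liver cells, 3 or 4 were at 0 in the K562 libraries and 6 in the THP-1 libraries, and their sum was between 54.9 and 607 CPM. PECAM1, an adhesion molecule that monocytes also carry, made up nearly all of it in THP-1. In K562 the largest part was the epithelial marker EPCAM, at 45.4 CPM in DMSO and 44.5 CPM in periplocin. Mitochondrially encoded genes took 5.62% of counts in K562 DMSO and 2.07% after periplocin, and 5.24% and 3.93% in THP-1.

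In each line, counts of the periplocin library were compared with those of the DMSO library by an exact binomial test after TMM scaling, and a gene was called when its adjusted p was under 0.05 and its absolute log2 fold change at least 1. Such a test compares 2 libraries, not the conditions. It covers counting error only, as do all intervals here, and no difference has a replicate check. Fewer cells that express a gene and less RNA per cell cannot be told apart in bulk RNA.

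ATP1B3, the beta subunit that is also the surface antigen CD298, was the only member called higher in both lines. Its counts in K562 were 1522 with DMSO and 5424 with periplocin, or 92.9 and 328 CPM. In THP-1 they were 1925 and 3486, or 93.3 and 197 CPM. The DMSO libraries thus started from nearly the same level, and both periplocin libraries lay above both DMSO libraries. The rise was 3.50-fold in K562 (95% exact interval 3.31 to 3.71) and 2.12-fold in THP-1 (2.01 to 2.25), with log2 fold changes of 1.81 (standard error 0.04) and 1.09 (standard error 0.04). Where genes averaging 1 CPM or more were ranked, 2.67% in K562 and 7.08% in THP-1 had a log2 fold change as high or higher. In the 10779 genes at that level in both lines, 183 (1.70%) were called higher in both.

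ATP1B1, the beta subunit found in most tissues, rose in THP-1. Its THP-1 counts were 206 with DMSO and 615 with periplocin, or 9.99 and 34.7 CPM, and 60 and 73 counts in the K562 libraries, or 3.66 and 4.41 CPM. The THP-1 periplocin library stood well above the other libraries, and the counting intervals of the K562 libraries overlapped. The rise in THP-1 was 3.50-fold (95% exact interval 2.99 to 4.12, log2 fold change 1.81, standard error 0.12). In K562 the ratio was 1.19 (0.837 to 1.71), so a change of that size was not detectable at this depth. ATP1B1 was already 2.97-fold higher (2.21 to 4.02) in THP-1 DMSO than in K562 DMSO.

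ATP1B2, a beta subunit best known from glia and also called the adhesion molecule on glia, had counts in K562 only. It rose there from 57 to 457 counts, or from 3.48 to 27.6 CPM. Both THP-1 libraries were at 0 counts, with exact 95% Poisson upper limits of 0.179 CPM in DMSO and 0.208 CPM in periplocin. The rise in K562 was 7.87-fold (95% exact interval 5.97 to 10.6, log2 fold change 2.97, standard error 0.20), and 0.826% of genes averaging 1 CPM or more had a change as high or higher. In DMSO, ATP1B2 was at least 17.3-fold lower in THP-1 than in K562 by the lower limit of the 95% exact interval, and the ratio was 22.0 with THP-1 set to 3 counts. Beside this rise, the summed erythroid markers of K562 went from 2561 to 12302 CPM and 11 of the 12 were called higher. Over all genes tested in K562, 8.18% were called higher. The summed monocytic markers were at 94.2 and 93.5 CPM in K562, where 2 of the 10 with counts were called higher and 3 lower. They went from 1076 to 1241 CPM in THP-1, where 3 of 12 were called higher and 1 lower. In either direction, 18.3% of all genes were called in K562 and 18.0% in THP-1. The part of these markers in the changes of the pump genes was not tested.

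FXYD5, also named dysadherin for its effect on cell adhesion, rose in THP-1. Its THP-1 counts were 763 with DMSO and 1797 with periplocin, or 37.0 and 101 CPM. The K562 libraries held 3529 and 4425 counts, or 215 and 267 CPM, and both were above both THP-1 libraries. The rise in THP-1 was 2.76-fold (95% exact interval 2.54 to 3.01, log2 fold change 1.47, standard error 0.06). In K562 the ratio was 1.23 (1.18 to 1.29), above 1 beyond counting error but under the 2-fold threshold. In DMSO, FXYD5 was 5.35-fold lower (4.95 to 5.80) in THP-1 than in K562.

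ATP1A4, the alpha subunit known from sperm, had 0 counts in K562 DMSO, 1 in K562 periplocin and 0 in both THP-1 libraries. All 4 libraries were thus at or under the floor, and no fold is given.

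**Figure D1:**
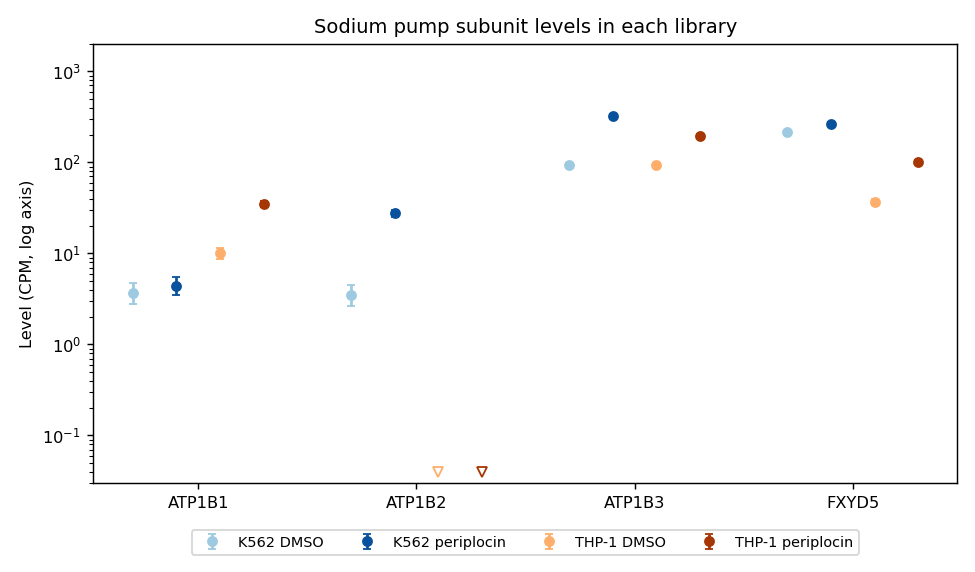
Level of each subunit in CPM (log axis) in the 4 libraries. Points are single libraries, bars are exact 95% Poisson intervals of the count, and open triangles mark 0 counts. ATP1B3 starts at 92.9 and 93.3 CPM in DMSO and ends at 328 and 197 CPM in periplocin.

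Counted together, 2 of the 5 members in K562 (ATP1B2 and ATP1B3) were called higher in periplocin, where 8.18% of the 15912 genes tested were called higher and 18.3% were called in either direction. In THP-1, 3 of the 3 members with counts (ATP1B1, ATP1B3 and FXYD5) were called higher, where 8.27% of 16016 genes were called higher and 18.0% were called in either direction. At an average of 10 CPM or more, 6.77% of genes were called higher in K562 and 5.32% in THP-1. No member was called lower in either line. The median log2 fold change was 1.05 over the 4 members with at least 1 CPM in K562 and 1.47 over 3 in THP-1, against -0.01 and -0.02 over all genes at that level. Between the DMSO libraries, 3 members were called (ATP1B1 higher in THP-1, ATP1B2 and FXYD5 lower), where 41.2% of 16425 genes were called and 21.7% were called higher in THP-1.

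**Figure D2:**
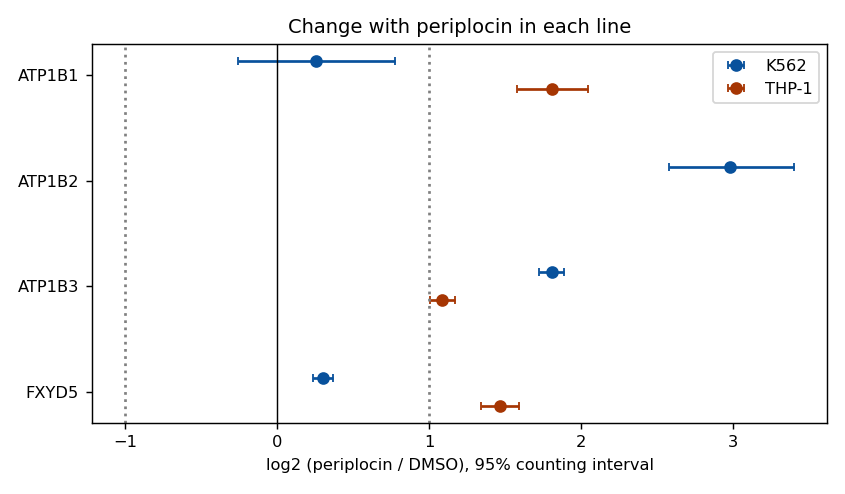
Change of each detected subunit in periplocin over DMSO (log2 axis) in K562 and THP-1. Bars are exact 95% binomial intervals that cover counting error only, and dotted lines mark a 2-fold change. ATP1B3 lies beyond the line in both lines of cells, ATP1B2 in K562 only, and ATP1B1 and FXYD5 in THP-1 only.

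The size of the change differed between the lines for several members. The log2 fold change in THP-1 minus that in K562 was 1.55 for ATP1B1 (95% interval 1.01 to 2.09) and 1.17 for FXYD5 (1.03 to 1.30), and it was -0.72 for ATP1B3 (-0.83 to -0.61). A difference of at least 1 in either direction was reached by 29.1% of 13584 genes, ATP1B1 and FXYD5 among them. That share includes genes with no count in 1 line, such as MPO with 0 counts in K562 (difference -1.38, 95% interval -7.10 to 4.34). For ATP1B2 no difference is given, since THP-1 had no counts.

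In the fit that takes the lines as the only repeats, with cell line and treatment as terms, the error is how far the lines disagree. Here edgeR's quasi-likelihood test called 0 of 13584 genes (0.00%), with 1535 at an unadjusted p under 0.05, and DESeq2 called 131 of 11213 genes (1.17%). ATP1B3 had a log2 fold change of 1.46 with adjusted p = 0.359 in edgeR's quasi-likelihood test and 1.47 with adjusted p = 0.010 in DESeq2. Of the 4 members fitted, ATP1B3 was the one that passed in DESeq2. For ATP1B1, ATP1B2 and FXYD5 the adjusted p in DESeq2 was between 0.451 and 0.700. ATP1B2 had no counts in THP-1, so its fit rested on the K562 pair and did not compare the lines.

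**Figure D3:**
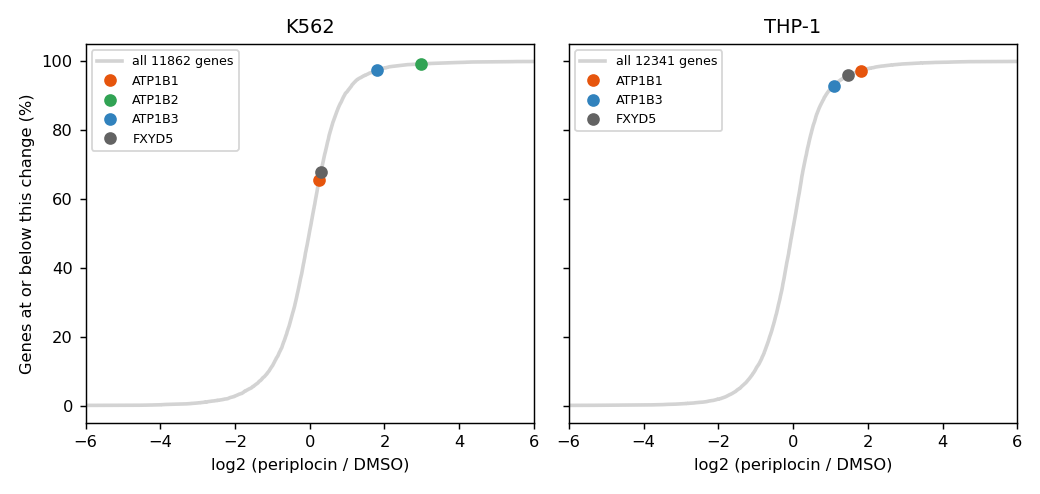
Share of genes (vertical axis, percent) at or below each log2 fold change (horizontal axis) in K562 and THP-1, over all genes averaging 1 CPM or more, with the members marked. ATP1B2 and ATP1B3 lie near the upper end in K562, and ATP1B1, FXYD5 and ATP1B3 do so in THP-1.

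Of 14 other genes of the family and its close relatives, NKAIN1, FXYD6 and NKAIN2 exceeded the floor in at least 1 library. NKAIN1, which encodes a protein that associates with the beta subunit, fell in THP-1 from 16 to 4 counts (3.41-fold, 95% exact interval 1.10 to 14.0) and had no count in K562. Its adjusted p was 0.0388 in edgeR's exact binomial test, but 0.0641 when libraries were scaled by 12 reference genes and 0.223 at an assumed dispersion of 0.04, so the call was lost under both. FXYD6 had 2 and 6 counts in K562 and 24 and 11 counts in THP-1, and NKAIN2 had 4 and 2 counts in K562 and 1 in each THP-1 library. The gastric and colonic proton pump genes ATP4A, ATP4B and ATP12A, the beta gene ATP1B4 and FXYD1, FXYD2, FXYD3, FXYD4, FXYD7, NKAIN3 and NKAIN4 were at 3 counts or fewer in all 4 libraries. Over these 14 genes, 0 were called in K562, and in THP-1 0 were called higher and 1 lower.

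To set subunits beside each other, each level was divided by the length of the longest coding transcript. On this scale of CPM per kilobase, ATP1B3 was the leading beta gene in every library, at 51.3 (DMSO) and 181 (periplocin) in K562 and at 51.5 and 109 in THP-1. It made up 95.3%, 94.5%, 93.1% and 89.1% of the beta sum in that order, and between 86.0% and 93.3% when coding length was used. The remainder was ATP1B1 and ATP1B2 in K562, at 0.884% and 4.58% in periplocin, and ATP1B1 alone in THP-1, at 10.9% in periplocin. FXYD5 stood at 215 and 266 CPM per kilobase in K562 and at 36.9 and 101 in THP-1.

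**Figure D4:**
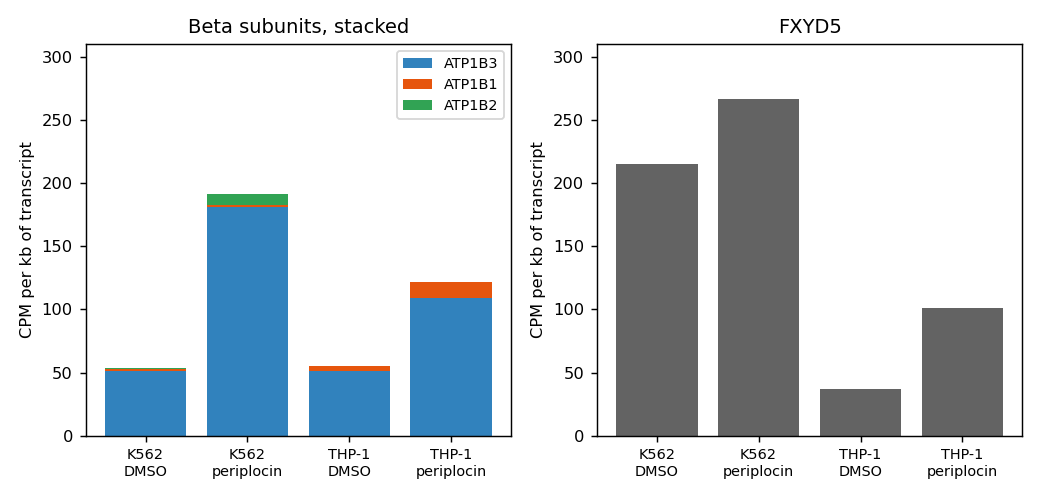
Left, beta subunits stacked as CPM per kilobase of transcript in the 4 libraries. Right, FXYD5 on the same scale. The beta sum is 53.8 (DMSO) and 191 (periplocin) in K562 and 55.4 and 122 in THP-1, mostly as ATP1B3.

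The genes whose pattern over the 4 libraries was nearest to each member were found by the distance between log2 CPM values centred on each gene's mean, among 11022 genes averaging 5 CPM or more. Nearest to ATP1B3 were PLPPR2 (distance 0.191), LMF1 and ZBTB40, and PLPPR2 had 236, 833, 349 and 574 counts in the order used above. Nearest to ATP1B1 were HPSE (0.274), INKA2 and LAMB3. ATP1B2 was nearest to ACHE (0.429), the acetylcholinesterase gene, which had 234 and 1264 counts in K562 and 1 in each THP-1 library, followed by RIPOR3 and FAXDC2. FXYD5 was nearest to PAIP2B (0.157), PTDSS2 and SPHK1. With 4 points per gene these are descriptions only.

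The pump builds the gradients that other membrane proteins use, and 3 lists of such genes were examined. Of 23 sodium-coupled carriers with counts in K562, 2 were called higher and 2 lower, or 17.4%, and of 25 in THP-1, 4 were higher and 1 lower, or 20.0%, near the 18.3% and 18.0% called over all genes. SLC6A6, the taurine transporter, rose in both lines. K562 had 1729 counts with DMSO and 6693 with periplocin, a log2 fold change of 1.93 ± 0.04 (standard error), and THP-1 had 929 and 3577, a change of 2.18 ± 0.05. SLC5A3, which carries myo-inositol, rose in THP-1 from 1631 to 3767 counts and went from 2435 to 4822 in K562, a log2 fold change of 0.96. SLC8A1, a sodium-calcium exchanger, rose in THP-1 from 288 to 642 counts, and SLC38A2, an amino acid carrier, rose there from 11893 to 24400. SLC1A4, also an amino acid carrier, fell in K562 from 2524 to 1284 counts. Its log2 fold change of -1.001 was barely past the threshold of 1. The list medians, -0.09 in K562 and 0.25 in THP-1, stood beside -0.01 and -0.02 over all genes.

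Of 19 potassium-chloride cotransporters, potassium channels and volume-regulated channel subunits with counts in K562, 3 were called higher and 3 lower, or 31.6%, and of 20 in THP-1, 1 was higher and 4 lower, or 25.0%, beside 18.3% and 18.0% of all genes. In K562, KCNN4, the calcium-activated potassium channel of red cells, rose from 185 to 746 counts, and SLC12A7, a potassium-chloride cotransporter, from 991 to 3557. KCNE3 fell there from 317 to 78 counts and LRRC8D from 2543 to 811. In THP-1, KCNQ5 fell from 543 to 127 counts, KCNA3 from 874 to 214 and KCNQ1 from 729 to 252, all of them genes of voltage-gated potassium channels. KCNQ5 also fell in K562, where it had 399 counts with DMSO and 142 with periplocin. The list medians were 0.02 and 0.09.

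Of 15 genes that answer ion levels or cell volume, 2 were called higher and 1 lower in K562, or 20.0%, and 2 higher and 2 lower in THP-1, or 26.7%, beside 18.3% and 18.0% of all genes. SGK1, a kinase known to raise sodium transport, rose in both lines. Its 172 counts in K562 DMSO became 381 (log2 fold change 1.12 ± 0.13, standard error), and its 31 counts in THP-1 DMSO became 166 (2.65 ± 0.28). NFAT5, the transcription factor of the response to hypertonicity, rose in THP-1 from 1908 to 4341 counts and went from 2917 to 4604 in K562, a log2 fold change of 0.63. AKR1B1, the aldose reductase gene, fell in THP-1 from 955 to 377 counts. WNK4, a kinase that controls chloride cotransporters, rose in K562 from 943 to 3223 counts, where SGK3 fell from 303 to 105. The list medians were 0.34 and 0.11.

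**Figure D5:**
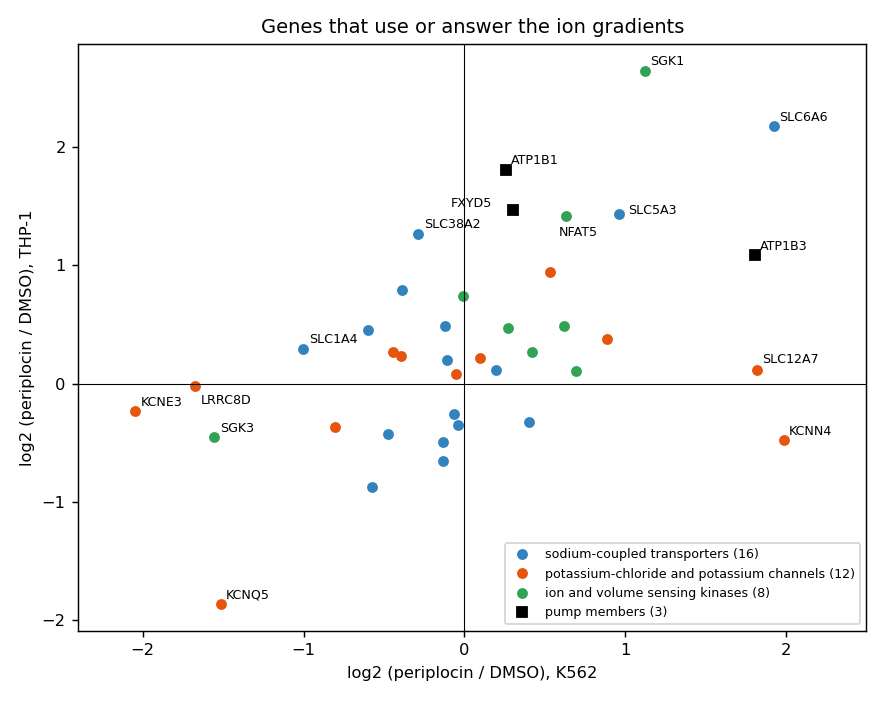
Log2 fold change in K562 (horizontal) and THP-1 (vertical) for genes of the 3 lists averaging 5 CPM or more in both lines, and for ATP1B1, ATP1B3 and FXYD5, of which ATP1B1 is below that average in K562. Named genes are labelled. SLC6A6, SGK1 and ATP1B3 lie above 1 in both lines.

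If replicates had varied with a dispersion of 0.04, ATP1B3 in THP-1 would have been the only member to lose a call (adjusted p = 0.077, edgeR's exact test), while its call in K562, ATP1B2 in K562 and ATP1B1 and FXYD5 in THP-1 would have passed. At a dispersion of 0.16 none of these treatment calls would have passed.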

How the data were processed

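Poly-A RNA of K562 and THP-1 cells was sequenced as paired-end reads of 150 bp, with 1 library per condition. The authors deposited 1 table of expected counts per gene and library, not normalized. The submitters' processing notes name HISAT2, StringTie 1.3.1 and hg38, and the counting program and annotation are not given in the sources used here. The methods name the T7 platform and the labels an Illumina instrument. The table has 0 columns that were not used.

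Expected counts were rounded. Genes with at least 1 count in a pair were tested with edgeR 4.0.16 in R 4.3.3 (TMM scaling, exact binomial test, dispersion 0), with p-values adjusted by the Benjamini-Hochberg method over all genes and a prior count of 0.125 for log2 fold changes. The fits over 4 libraries kept genes that reached 10 counts in 2 or more libraries and used edgeR's quasi-likelihood test and DESeq2 1.42.0, with 1 residual degree of freedom. Lengths and coordinates came from GENCODE release 29, in which 20118 of 20348 identifiers were found, and promoters from RefSeq, which matched 5 of 5 members. Tests were run first on simulated counts. For the pairs these held counting error only, and for the fits over 4 libraries a small set dispersion. Such counts cannot show how the tests behave with real replicate spread. Figures were drawn with matplotlib 3.10.9 in Python 3.11.15.

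The members, lists and tests were chosen with earlier results of these data known. Genes named are the members, the 14 other family genes described, the 4 called genes with the largest change in each further list and line averaging 5 CPM or more, and the 3 nearest patterns for each member with over 30 counts in all. NME7, PECAM1 and the marker genes were named after their values were seen. Expected counts may split reads between genes, so the true error is no smaller than the counting error. Some genes of the family are not reported here.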

Additional observations from a re-analysis of the deposited data

Results flagged for a closer look

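Among the members and the genes named from the 3 ion lists, 3 moved in opposite directions in the lines, each beyond its counting error. Some marker genes also did so, among them PECAM1, at 64 and 22 counts in K562 and 8033 and 10719 in THP-1. SPI1, at 339 and 179 against 3702 and 4377, and LYZ, at 752 and 1062 against 3962 and 2752, were others. Genes of the 3 lists that were not named were not examined for this. No replicate spread exists, so these differences were not tested. KCNN4 had 185 counts in K562 DMSO and 746 in K562 periplocin, against 418 and 256 in THP-1, and its log2 fold change in THP-1 minus that in K562 was -2.46. For SLC38A2, at 11078 and 9249 counts in K562 and 11893 and 24400 in THP-1, the difference was 1.55. For SLC1A4, at 2524 and 1284 counts in K562 and 3238 and 3390 in THP-1, it was 1.30. No member of the sodium pump moved in opposite directions.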

How the results depend on the processing

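No paired analysis was possible by replicate number because each condition had 1 library. Cell line was a term in the fit over both lines, and this was the only pairing. No library could be left out of a pair. With an assumed dispersion of 0.04 the called genes numbered 1728 in K562 and 1622 in THP-1, and with 0.16 they numbered 100 and 88, and 3360 between the DMSO libraries. When the log2 threshold was raised to 2 they were 960, 968 and 4258. Genes whose change differed between the lines numbered 3956 in the main setting. Among those with at least 10 counts in all 4 libraries, a smaller set whose share was not computed, they numbered 2205. The fit over both lines called 0 genes in edgeR's quasi-likelihood test (1535 at an unadjusted p under 0.05), 131 in DESeq2, 1 with all genes that had a count and 1 with total counts for scaling. Of the called genes, 45.9% were higher in THP-1 periplocin by TMM, and 51.2% when scaled by the sum of 12 reference genes, an alternative chosen after seeing the data. Between the DMSO libraries 52.7% were higher in THP-1 by TMM and 36.0% by that sum, which moved the median of all genes from 0.02 to -0.46. There the difference in ATP1B3 turned from 0.13 to -0.35. This was the only reversal among the pump genes described, and this scaling shifts all genes of a pair alike. The reference genes summed to 8008.5 CPM in K562 DMSO and 10289 CPM in THP-1 DMSO. Why that sum differed was not tested. For ATP1B3 the log2 fold change lay between 1.75 and 1.83 in K562 and between 1.06 and 1.16 in THP-1 over 7 alternatives. The assumed dispersions of 0.04 and 0.16 are among these 7 and cannot move the log2 fold change, only its p.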
